A study of Mus musculus with 12 samples.

Results

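The Dlx and Msx homeobox genes are the 6 genes of the deposited table whose symbol is Dlx2, Dlx3, Dlx5, Dlx6, Msx1 or Msx2, out of 17536 genes in all. They were chosen by name (Entrez genes 13392, 13393, 13395, 13396, 17701 and 17702, in that order), and their values were read in all 12 libraries. RNA was sequenced from chondrocytes of the superficial zone (SFZ cells) and of the deeper zone (DZ cells) in 5-day-old mice, of strain C57BL/6 in the labels and C57BL/6J in the study's methods. R3-cKO mice carried Col2a1-Cre, which drives recombination in cells that use the Col2a1 promoter, on a Runx3 fl/fl background, and R3-Cntl mice were Runx3 fl/fl littermates without Cre. By the study's methods, SFZ cells were released from the cartilage first and DZ cells by a further, longer collagenase treatment of what remained, and isolated cells were grown as a monolayer on coated dishes, a step that the labels do not mention. Each genotype and zone had 3 libraries. Levels are given in FPKM, fragments scaled to transcript length and to the library, which allows genes of different length to be compared.

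Dlx proteins are the vertebrate relatives of Drosophila Distal-less, and Msx proteins are relatives of muscle segment homeobox. Both families bind DNA through a homeodomain, are switched on by bone morphogenetic proteins (BMPs) in limb buds, facial primordia and skull, and act in opposite ways at many promoters, Dlx proteins mostly as activators and Msx proteins mostly as repressors. In the skeleton, Dlx5 and Dlx6 promote chondrocyte hypertrophy and osteoblast differentiation, Dlx3 acts in osteoblasts, skin and hair, Dlx2 patterns the jaw, and Msx1 and Msx2 keep progenitors of the skull and limb growing.

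Runx3, the gene targeted in these mice, stood at 10.73, 5.98 and 6.65 FPKM in SFZ cells of R3-Cntl mice (libraries 1, 2 and 3), against 11.83, 9.07 and 3.42 FPKM in the libraries that carry the R3-cKO label. Its DZ levels were 12.67, 12.65 and 7.66 FPKM without Cre and 15.95, 12.66 and 8.14 FPKM under the R3-cKO label. The genotypes overlapped in both zones, and the log2 fold change was -0.04 (standard error 0.43) in SFZ cells and 0.13 (standard error 0.28) in DZ cells. Runx3 was thus not lower under the R3-cKO label, and a value per gene does not show whether the floxed exons were present. Directions between genotypes are therefore given for libraries by their label, R3-cKO, and not for loss of Runx3. The Y-linked gene Ddx3y, chosen after its values were seen, also set libraries apart: it measured 0 to 0.02 FPKM in libraries 2 and 3 labelled R3-cKO of both zones and 4.96 to 21.09 FPKM in the other libraries.

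The zone labels were checked against cartilage markers. Col2a1, the main collagen of cartilage, measured 3049 to 9229 FPKM in the 6 SFZ libraries and 11248 to 22791 FPKM in the 6 DZ libraries, with no overlap. Prg4, which encodes the lubricin of the joint surface, stood at 22.24, 8.38 and 7.13 FPKM in SFZ cells of R3-Cntl mice, against 6.95, 2.47 and 2.13 FPKM under the R3-cKO label. In DZ libraries Prg4 lay between 1.22 and 5.72 FPKM, so it separated the zones in R3-Cntl cells but not under the R3-cKO label. These are bulk libraries, in which fewer cells of a type and less RNA per cell cannot be told apart.

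The 6 members differed widely in level. Dlx5 averaged 11.6 FPKM over the 12 libraries, higher than 69.3% of the genes of the table, and made up 46.5% to 74.2% of the members' summed level in single libraries. The next were Msx1 at 1.93 FPKM, Dlx2 at 1.91 FPKM and Msx2 at 1.3 FPKM. Their SD over libraries was 0.623, 1.59 and 0.535 FPKM, so Msx1 and Dlx2 lay closer together than the SD of either, while Dlx2 and Msx2 lay apart by less than the SD of Dlx2 but more than that of Msx2. Dlx6 averaged 0.990 FPKM and Dlx3 0.544 FPKM (SD 0.560 and 0.344 FPKM). Msx2 and Dlx6 were within the SD of either, and Dlx6 and Dlx3 within the SD of Dlx6 but not that of Dlx3. Dlx5 and Msx1 reached 1 FPKM in all 12 libraries, Msx2 in 8, Dlx2 in 7, Dlx6 in 6 and Dlx3 in 2. The relatives Dlx1, Dlx4 and Msx3 stayed under 0.4 FPKM in every library, with highest values of 0.39, 0.20 and 0.02 FPKM, and Dlx1as, Dlx6os1 and Dlx6os2 had no row of that name in the table.

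**Figure D1:**
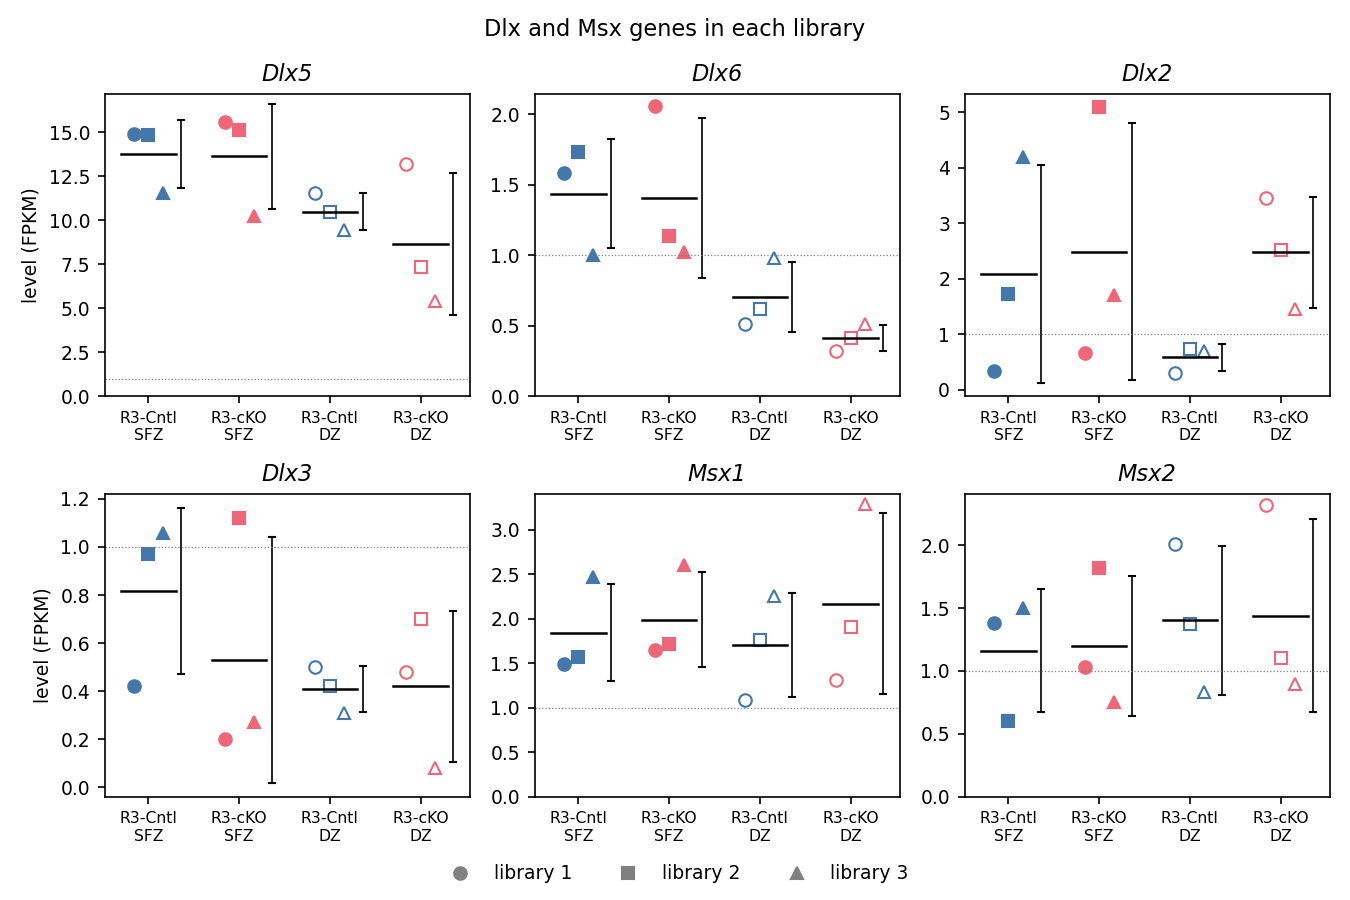
Level in FPKM (vertical axis) of the 6 Dlx and Msx genes in each of the 12 libraries, by genotype and zone (horizontal axis). Filled points are SFZ and open points DZ libraries, the point shape is the library number, thick lines are group means, bars are the SD of 3 libraries and the dotted line is 1 FPKM. Dlx6 lay at or above 1 FPKM in SFZ and at or below 0.98 FPKM in DZ libraries, and Dlx2 separated the genotypes in DZ cells.

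The Dlx genes named here sit in pairs. In the mm9 assembly used by the authors, with GENCODE gene models, Dlx5 (chromosome 6, 6827805 to 6832085, reverse strand) and Dlx6 (6813334 to 6818568, forward strand) point at each other across 9236 bases. Dlx2 (chromosome 2, 71381466 to 71384811, reverse strand) faces Dlx1 across 9427 bases, and Dlx3 (chromosome 11, 94981403 to 94986610, forward strand) faces Dlx4 across 15159 bases. Msx1 (chromosome 5, 38211724 to 38215822, reverse strand) and Msx2 (chromosome 13, 53562250 to 53568443, reverse strand) stand alone. The antisense gene Dlx6os1 (6770189 to 6819533, reverse strand) spans Dlx6, and since the strand of counting is not stated, reads of the pair cannot be told apart in the Dlx6 value. Dlx5 was above Dlx6 and Dlx2 above Dlx1 in each of the 12 libraries. Dlx3 was above Dlx4 in all but DZ library 3 labelled R3-cKO, where Dlx3 measured 0.08 FPKM and Dlx4 0.16 FPKM.

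Dlx6 was the member called as different between zones, lower in DZ than in SFZ cells, and its neighbour Dlx5 came next by p-value. The comparison of DZ with SFZ cells is between cells released by the later and the earlier digestion, and a difference of zone cannot be told apart from one of digestion. Dlx6, the partner of Dlx5 in hypertrophy and bone formation, reached 1.58, 1.73 and 1 FPKM in SFZ libraries 1, 2 and 3 of R3-Cntl mice, against 2.06, 1.14 and 1.02 FPKM under the R3-cKO label. Its DZ levels were 0.51, 0.62 and 0.98 FPKM in R3-Cntl cells, against 0.32, 0.41 and 0.51 FPKM under the R3-cKO label. All 6 SFZ libraries were above all 6 DZ libraries, although R3-Cntl library 3 gave nearly the same value in both zones, and each SFZ library exceeded the DZ library of its genotype and number. The mean was 1.42 FPKM in SFZ and 0.558 FPKM in DZ cells, a ratio of 2.55. With limma, a linear model with a shared estimate of spread, the log2 fold change of DZ over SFZ was -0.63 (standard error 0.14, 95% interval -0.94 to -0.32, adjusted p = 0.0125). Log2 fold changes here are of FPKM + 1, and the added 1 makes them smaller than the ratio of means for genes near or below 1 FPKM. Dlx6 passed the filter on low values, 1 FPKM in 3 libraries, only through its SFZ libraries.

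Dlx6 was the 1 member called of 5 tested over both genotypes, where 20.6% of all genes tested were called, 2424 of 11765, with 450 higher and 1974 lower in DZ cells. It was also the 1 member whose zones did not overlap, against 9.71% of all genes tested with every DZ library below every SFZ library. These shares are the background for that single call. Dlx6 was tested only through its SFZ libraries, so the separation of its zones is not independent of the filter. The count of 2424 rose to 3949 with blocks, was 1926 with quantile normalization (1098 higher and 828 lower in DZ cells) and 1909 with size factors (935 higher and 974 lower), and fell to 1245 without R3-Cntl SFZ library 2, to 1545 without R3-Cntl DZ library 1 and to 1588 without DZ library 1 labelled R3-cKO, and the call of Dlx6 was kept in each. The median gene stood at -0.14, and quantile normalization moved that median to 0.034 and size factors by the median of ratios moved it to 0.0025. Dlx6 remained called on both scales, at -0.39 and -0.55 (adjusted p = 0.0428 and 0.0214, the range over all alternatives being 0.00962 to 0.0428).

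Dlx5, the most abundant member and an early BMP target in osteoblast and chondrocyte precursors, reached 14.93, 14.85 and 11.53 FPKM in SFZ libraries 1, 2 and 3 of R3-Cntl mice, against 15.59, 15.11 and 10.22 FPKM under the R3-cKO label. Its DZ levels were 11.54, 10.47 and 9.47 FPKM in R3-Cntl cells, against 13.20, 7.35 and 5.43 FPKM under the R3-cKO label. Each SFZ library was above the DZ library of its genotype and number, but the zones overlapped, since DZ library 1 of each genotype was above SFZ library 3 of each genotype. The mean was 13.7 FPKM in SFZ and 9.58 FPKM in DZ cells, and the log2 fold change of -0.51 (standard error 0.19) missed the threshold at adjusted p = 0.0761. It passed with library numbers as blocks (adjusted p = 0.0134) and without DZ library 1 labelled R3-cKO (-0.67, adjusted p = 0.0175), and over all alternatives the adjusted p ran from 0.0134 to 0.214.

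Within single genotypes no member was called. In R3-Cntl cells 1.24% of genes tested were called between zones, 140 of 11336, and 3102 had an unadjusted p under 0.05, Dlx5 and Dlx6 among them. Dlx6 gave -0.51 (limma adjusted p = 0.148), and permuting the labels exactly, two-sided, gave p = 0.1, the smallest for 3 against 3 libraries. Its zones did not overlap there, as for 26.5% of genes tested in that direction. Under the R3-cKO label 0.0176% of genes were called, 2 of 11336, and 1602 had an unadjusted p under 0.05, while with library numbers as blocks 352 were called. Dlx6 was not called, at -0.74 (adjusted p = 0.212, and 0.0973 with library numbers as blocks, exact permutation p = 0.1), with zones that did not overlap, as for 16.8% of genes tested. Dlx5 gave -0.36 (adjusted p = 0.164) in R3-Cntl cells and -0.66 (adjusted p = 0.417, and 0.0907 with blocks) under the R3-cKO label, and its exact permutation p was 0.2 in both. Between zones, libraries that shared a number were alike under the R3-cKO label (r of 0.42, 0.78 and 0.65 over 11359 genes, each library taken as its difference from its group mean), and less so in R3-Cntl cells (0.58, 0.11 and -0.15). There SFZ library 3 was more like DZ library 2 (r = 0.58) and SFZ library 2 more like DZ library 3 (r = 0.38), so counts by number and fits with blocks that use R3-Cntl SFZ libraries 2 and 3 pair libraries that were not alike.

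The counts within single genotypes depended on single libraries and on processing. The count of 140 in R3-Cntl cells was 0 with no filter, 1 with quantile normalization, 17 with size factors and 831 with blocks. It was 0 without SFZ library 2, without DZ library 1 or without DZ library 2, it was 3 without SFZ library 3 and 4 without DZ library 3, and it was 505 without SFZ library 1. The count of 2 under the R3-cKO label was 352 with blocks, 7 with no filter and 2 on both other scalings, and it was 0 without SFZ library 1 or without any single DZ library, 1 without SFZ library 2 and 5 without SFZ library 3. The zone comparisons and the genotype comparisons use the same libraries, so their values are given side by side and are not independent of each other.

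The other members did not separate the zones. Over both genotypes, Dlx2 gave -0.30 on the log2 scale (standard error 0.37, adjusted p = 0.598, lower in 5 of 6 DZ libraries by number). Its mean log2 difference was -0.77 in R3-Cntl cells, where Dlx2 missed the filter (lower in 3 of 3 by number, exact permutation p = 0.3), and 0.17 under the R3-cKO label (adjusted p = 0.927, lower in 2 of 3, exact permutation p = 0.9), with overlapping zones in both. Over both genotypes Msx2 gave 0.14 (standard error 0.20, adjusted p = 0.643) and Msx1 gave -0.014 (standard error 0.18, adjusted p = 0.964), the last changing sign under both other scalings, to 0.25 and 0.09. Dlx3 did not reach the filter in any comparison. Its mean was 0.673 FPKM in SFZ and 0.415 FPKM in DZ cells, with overlapping libraries and an exact permutation p of 0.3 in R3-Cntl cells and 0.8 under the R3-cKO label.

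**Figure D2:**
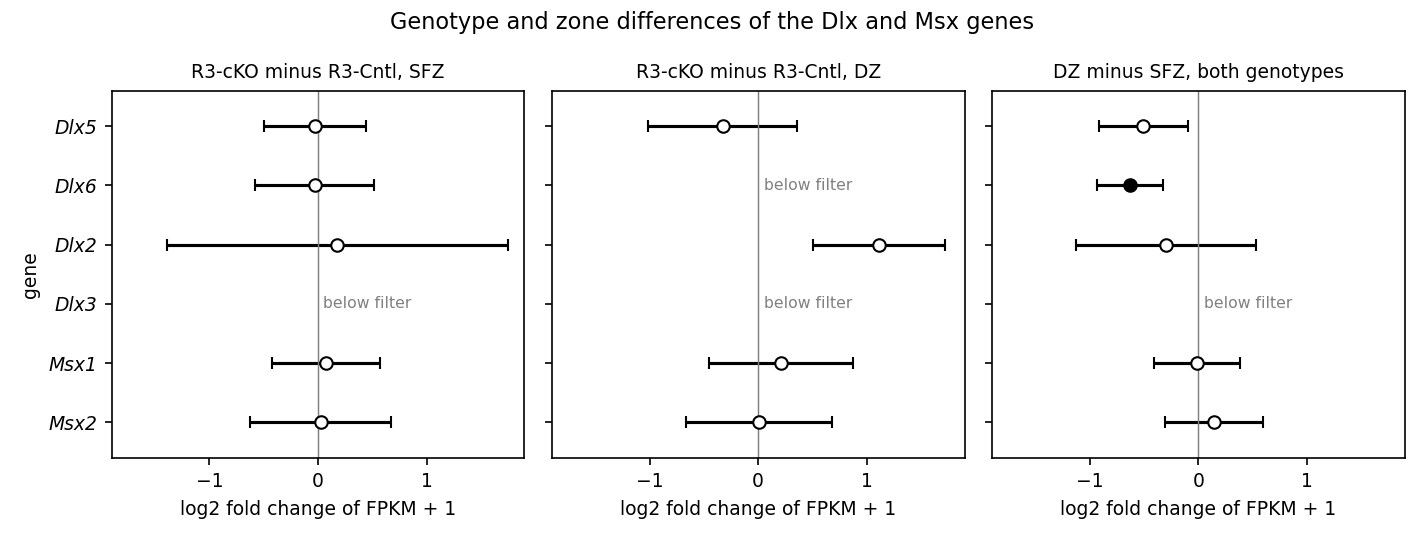
Log2 fold change of FPKM + 1 (horizontal axis) of the Dlx and Msx genes (vertical axis) between genotypes in SFZ cells, between genotypes in DZ cells and between zones over both genotypes. Points are limma estimates, bars are 95% intervals, filled points have an adjusted p under 0.05, and members under the filter on low values are marked. Only Dlx6 between zones was filled, at -0.63, and it stayed so on both other scalings.

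Dlx2 separated the DZ libraries by their genotype label but was not called. Dlx2, a patterning gene of jaw and forebrain, reached 0.30, 0.74 and 0.70 FPKM in DZ libraries 1, 2 and 3 of R3-Cntl mice, against 3.46, 2.52 and 1.46 FPKM under the R3-cKO label. Every library labelled R3-cKO was above every R3-Cntl library, and the means were 2.48 ± 1 FPKM (SD, n = 3) and 0.580 ± 0.243 FPKM (SD, n = 3), a ratio of 4.28. By library number the ratios were 11.5, 3.41 and 2.09. On log2(FPKM + 1), where the added 1 shrinks differences at such low levels, the fold change was 1.11 (standard error 0.25, 95% interval 0.50 to 1.72). Its unadjusted p of 0.00381 ranked 23 of 11091 genes in limma, and its adjusted p was 0.999. By exact permutation, two-sided, p was 0.1, again the smallest possible. Dlx2 passed the filter only through the libraries labelled R3-cKO and did not pass it when any 1 of those 3 was left out.

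In DZ cells 0% of genes tested were called by limma between genotypes, 0 of 11091, while an unadjusted p under 0.05 was seen for 404, of which 277 were higher and 127 lower under the R3-cKO label. Dlx2 was 1 of those 404 and was the 1 member of 4 tested whose groups did not overlap, as for 5.26% of genes tested with every library labelled R3-cKO above every R3-Cntl library. Dlx2 was tested only through its libraries labelled R3-cKO, so its place in this count is not independent of the filter. Across genotypes, DZ libraries that shared a number were alike (r of 0.65, 0.78 and 0.69 over 11359 genes, taken as above). SFZ libraries that shared a number were not, with r of 0.79, -0.09 and -0.42, whereas R3-Cntl library 3 was like library 2 labelled R3-cKO (r = 0.69) and R3-Cntl library 2 like library 3 labelled R3-cKO (r = 0.45). In DZ cells, with library numbers as blocks the adjusted p of Dlx2 was 0.197, against 0.942 to 1 under the other alternatives. With blocks 0 genes were called, and 1830 had an unadjusted p under 0.05. Ddx3y stood at 16.99, 7.5 and 6.92 FPKM in DZ libraries 1, 2 and 3 of R3-Cntl mice and at 12.67, 0 and 0 FPKM under the R3-cKO label, and its part in the Dlx2 difference was not tested.

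The summed level of 19 keratinocyte markers was also higher under the R3-cKO label in DZ cells, a separation that rested on Perp. The sum was 11.66, 15.21 and 13.17 FPKM in DZ cells of R3-Cntl mice, against 21.21, 28.69 and 19.77 FPKM under the R3-cKO label, with no overlap. Its most abundant gene in every library was Perp, a desmosome-related gene also made outside skin, at 8.75, 8.69 and 5.35 FPKM without Cre and 14.83, 18.08 and 10.04 FPKM under the R3-cKO label. Of the keratins on the list, Krt5, Krt14 and Krt1 were at or under 0.14 FPKM and Krt15 at or under 0.21 FPKM in all 12 libraries, while Krt10 reached 0.92, 0.86 and 0.97 FPKM in R3-Cntl DZ cells and 1.08, 1.12 and 1.1 FPKM under the R3-cKO label. The desmosome gene Dsp stood at 0.12, 0.24 and 0.18 FPKM without Cre and at 1.06, 0.52 and 1.34 FPKM under the R3-cKO label. Perp, Krt10, Dsp and Cdh1 did not overlap between genotypes in DZ cells, Cdh1 at or under 0.11 FPKM there. Trp63 and Pkp1 overlapped, and Krt5, Ivl, Ovol1, Grhl3 and Col17a1 had lower means under the R3-cKO label. Without Perp, the summed rest of the list overlapped between genotypes in DZ cells. In SFZ cells, where Dlx2 did not separate the genotypes, the sum of the list was 13.14, 14.13 and 25.24 FPKM without Cre, against 21.2, 34.62 and 25.46 FPKM under the R3-cKO label. Perp accounted for 6.94, 5.81 and 14.54 FPKM of the former and 12.99, 22.02 and 18.37 FPKM of the latter, and both the sum and Perp overlapped between genotypes there. Of the 19 genes 4 passed the filter in DZ cells, all 4 with positive and none with called differences, and the part of this list in the Dlx2 difference was not tested. The 7 superficial zone markers, led by Tnc in DZ cells, summed to 36.66, 94.31 and 88.37 FPKM in DZ cells of R3-Cntl mice and to 128.52, 149.42 and 90.49 FPKM under the R3-cKO label, where the groups overlapped and 0 genes of the list were called. Over all genes tested in this comparison the median was 0.047. Of 11 chondrocyte markers 10 were lower under the R3-cKO label (list median -0.44), all 4 tendon and fibroblast markers tested were higher (0.39), and both macrophage markers tested were lower (-0.50), with 0 genes of these lists called and their part in the Dlx2 difference not tested.

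In SFZ cells Dlx2 spread as widely within a genotype as between them. Its levels were 0.33, 1.73 and 4.2 FPKM in SFZ libraries 1, 2 and 3 of R3-Cntl mice, against 0.66, 5.09 and 1.7 FPKM under the R3-cKO label. Library 1 was the lowest of each group and the groups overlapped, and the log2 difference was 0.18 (standard error 0.65), whose sign turned when R3-Cntl library 1 or R3-cKO library 2 was left out. The difference between the genotype effects of the zones, DZ minus SFZ, was 0.93 (standard error 0.75, limma adjusted p = 0.999). A larger effect in DZ than in SFZ cells was therefore not shown.

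The other members did not separate the genotypes in either zone. In SFZ cells 0% of genes tested were called by limma, 0 of 11537, with 34 at an unadjusted p under 0.05 and no member among them. None of the 5 members tested there had groups without overlap, against 1.45% of genes tested higher and 0.953% lower under the R3-cKO label. The log2 fold changes were -0.026 for Dlx5, -0.030 for Dlx6, 0.073 for Msx1 and 0.025 for Msx2, with standard errors from 0.19 to 0.27. For Dlx3, under the filter, the mean log2 difference was -0.28 (exact permutation p = 0.4). In DZ cells Dlx5 gave -0.33 (standard error 0.29), Msx1 0.21 (standard error 0.28) and Msx2 0.0070 (standard error 0.28), all at an adjusted p of 0.999. Dlx6 was under the filter in DZ cells, with lower values under the R3-cKO label in 3 of 3 libraries by number and groups that overlapped at 0.51 FPKM (mean log2 difference -0.26, exact permutation p = 0.2), and Dlx3 gave -0.013 (exact permutation p = 0.9). For the difference of the genotype effects between zones limma called 0% of genes, 0 of 11765, with 99 at an unadjusted p under 0.05 and no member among them.

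Msx1 and Msx2, the repressors among the members, spread more within groups than their group means differed. Msx1 reached 1.49, 1.57 and 2.47 FPKM in SFZ libraries 1, 2 and 3 of R3-Cntl mice, against 1.65, 1.71 and 2.60 FPKM under the R3-cKO label. Its DZ levels were 1.09, 1.76 and 2.26 FPKM without Cre and 1.31, 1.91 and 3.29 FPKM under the R3-cKO label. Library 3 was the highest of each of these groups, and the value under the R3-cKO label was above the R3-Cntl value of the same number in 3 of 3 libraries of each zone while the groups overlapped. In SFZ cells that count rests on numbers 2 and 3, which did not pair libraries that were alike. Msx2 reached 1.38, 0.60 and 1.5 FPKM in SFZ cells of R3-Cntl mice, against 1.03, 1.82 and 0.75 FPKM under the R3-cKO label. Its DZ levels were 2.01, 1.37 and 0.83 FPKM without Cre and 2.32, 1.10 and 0.90 FPKM under the R3-cKO label. Library 1 was the highest DZ library of both genotypes for Msx2, and its groups overlapped in every comparison.

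Promoters of the members were read for letters that Runx and homeodomain proteins bind, since the members are read here against a Runx3 genotype. RefSeq promoter sequences of GRCm38.p6 were matched for 3 of the 6 members, Dlx2, Msx1 and Msx2, and Dlx3, Dlx5 and Dlx6 are named only. Each sequence is the 250 bases before the gene's start, from 5′ to 3′ on the gene's strand, which is the reverse strand at chr2:71546755-71547004 for Dlx2, at chr5:37824586-37824835 for Msx1 and at chr13:53472781-53473030 for Msx2. Capitals mark the homeodomain letters TAATTA or TAATTG, on either strand.
Dlx2: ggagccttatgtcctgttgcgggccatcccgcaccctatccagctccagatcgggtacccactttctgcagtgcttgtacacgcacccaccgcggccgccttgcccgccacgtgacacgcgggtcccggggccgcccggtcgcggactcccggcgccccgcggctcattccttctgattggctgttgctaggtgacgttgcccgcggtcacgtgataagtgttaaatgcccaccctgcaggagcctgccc
Msx1: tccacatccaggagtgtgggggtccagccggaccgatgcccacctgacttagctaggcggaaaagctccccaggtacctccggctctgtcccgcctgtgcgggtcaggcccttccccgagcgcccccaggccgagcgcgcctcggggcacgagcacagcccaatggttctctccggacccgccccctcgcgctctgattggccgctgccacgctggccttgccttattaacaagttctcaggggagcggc
Msx2: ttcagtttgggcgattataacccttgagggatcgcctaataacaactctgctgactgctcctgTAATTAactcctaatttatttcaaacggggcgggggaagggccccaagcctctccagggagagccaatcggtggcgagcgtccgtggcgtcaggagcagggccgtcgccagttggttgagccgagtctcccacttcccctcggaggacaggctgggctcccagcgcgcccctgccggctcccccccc

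The Runx letters TGTGGT or TGCGGT, on either strand, were in 0 of the 3 sequences, and 18.59% of 32851 promoters of the same length held them. The homeodomain letters were found once, in Msx2 from 187 to 182 bases before the start, and 11.25% of promoters held them. The 3 sequences were rich in G and C, at 66.4% in Dlx2, 68.0% in Msx1 and 61.6% in Msx2. A match describes letters only, and its absence covers only this window.

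Among themselves the members did not move as a block over the 12 libraries. The neighbours Dlx5 and Dlx6 had a Pearson r of 0.63, Dlx2 and Dlx3 of 0.62, Dlx5 and Msx1 of -0.68, and Msx1 and Msx2 of -0.56. These are descriptions over 12 libraries that also share their zones and genotypes. Over the same libraries the genes most like Dlx6 of 11764 genes were S1pr1 (r = 0.96), a receptor for sphingosine 1-phosphate, the transcriptional cofactor Eya1 (0.95) and Tmem30b (0.95). Eya1 measured 4.04 to 8.89 FPKM in SFZ and 0.56 to 2.32 FPKM in DZ libraries, so, like Dlx6, its zones did not overlap. Eya1 was picked for its likeness to Dlx6 in these same libraries, so that shared pattern is not independent of the choice. Dlx2 was most like Rgs17 (r = 0.95), a regulator of G protein signalling, Nxn (0.93) and Jph2 (0.93). Dlx5 was most like the heparan sulfate proteoglycan Gpc1 (0.93), Unc5b (0.89) and Sash1 (0.89), Msx1 like Hoxa10, Cdkn2a and Zfp687 (each 0.91), and Msx2 like Gfer (0.94) and the mitochondrial ribosomal genes Mrpl20 (0.90) and Mrpl33 (0.89). Cdkn2a, a cell cycle inhibitor, ranged from 0.65 to 15.33 FPKM and was, like Msx1, highest in library 3 of each group, which is likewise not independent of its choice by likeness to Msx1.

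Upstream of these genes, 21 of 21 listed genes of BMP input and readout passed the filter over the 12 libraries, and 4 of them were called between zones, all lower in DZ cells on the deposited scale, a share close to the 20.6% called over all genes tested. The list's median was -0.23 against -0.14 over all genes tested. Bmp4, a ligand that induces Dlx and Msx genes, reached 21.72, 79.40 and 55.45 FPKM in SFZ cells of R3-Cntl mice, against 22.49, 58.59 and 31.31 FPKM under the R3-cKO label. The DZ levels of Bmp4 were 0.42, 8.5 and 13.25 FPKM without Cre and 5.37, 14.90 and 18.63 FPKM under the R3-cKO label. Every SFZ library was above every DZ library, and the log2 difference was -2.26 (standard error 0.58, adjusted p = 0.0227). The receptors Bmpr1b (-0.77, adjusted p = 0.0131) and Acvr1 (-0.32, adjusted p = 0.0354) and the antagonist Chrd (-0.65, adjusted p = 0.0368) were the other 3, with the DZ value below the SFZ value of the same number in 6, 5 and 6 of 6 pairs. Bmp4 was called on both other scalings too, Bmpr1b with size factors only, and Acvr1 and Chrd on neither, while the ligand Bmp5 (0.39, adjusted p = 0.0710) was called as higher in DZ cells on both.

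Of the readouts of BMP signalling on the list, Id1, Id2, Id3, Smad6 and Smad7, none was called between zones. Id1 measured 50.3 to 109 FPKM and Id3 87.2 to 208 FPKM over the 12 libraries, with overlapping zones and log2 fold changes of -0.23 (adjusted p = 0.454) and -0.44 (adjusted p = 0.176). Id2 lay between 22.42 and 94.96 FPKM, and the feedback inhibitors were lower, Smad6 at 6.96 to 30.96 FPKM and Smad7 at 1.8 to 7.48 FPKM. Both binding partners on the list, Maged1 and Ndn, which encode proteins that bind Dlx and Msx proteins, were abundant at 156 to 282 FPKM and 39.9 to 65.0 FPKM. Neither was called, at 0.15 (adjusted p = 0.456) and 0.051 (adjusted p = 0.815). Between genotypes 0 genes of both lists were called in either zone.

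Among other homeobox genes of skeletal mesenchyme, 3 were called between zones, with larger differences of log2(FPKM + 1) than Dlx6. The added 1 shrinks the difference of Dlx6, near 1 FPKM, more than those of genes at higher levels, so this order depends in part on level. Of 12 listed genes 7 passed the filter and 3 were called, all lower in DZ cells on the deposited scale, where 20.6% of all genes tested were called, with a list median of -0.47 against -0.14 over all genes tested. Prrx1, a limb mesenchyme gene, reached 45.16, 70.83 and 61.15 FPKM in SFZ cells of R3-Cntl mice, against 8.53, 26.16 and 33.82 FPKM in their DZ cells. Under the R3-cKO label its levels were 47.20, 53.29 and 67.41 FPKM in SFZ and 10.20, 19.93 and 18.53 FPKM in DZ libraries. The zones of Prrx1 did not overlap, and their log2 difference was -1.63 (adjusted p = 0.00665). Its relative Prrx2 (-2.69, adjusted p = 0.00582) and the muscle and mesenchyme gene Meox2 (-3.40, adjusted p = 0.000816) were lower in 6 of 6 DZ libraries by number. These 3 kept their calls on both other scalings. Nkx3-2, a gene of chondrocyte precursors, was above its SFZ value in 6 of 6 DZ libraries by number at 0.86 (adjusted p = 0.0623), and it was called as higher in DZ cells on both other scalings (adjusted p = 0.0368 with quantile normalization and 0.0454 with size factors). Shox2, a gene of proximal limb skeleton, at 0.37 (adjusted p = 0.1, higher in 6 of 6), was called as higher in DZ cells with size factors only. Between genotypes 0 of the 7 were called in either zone.

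**Figure D3:**
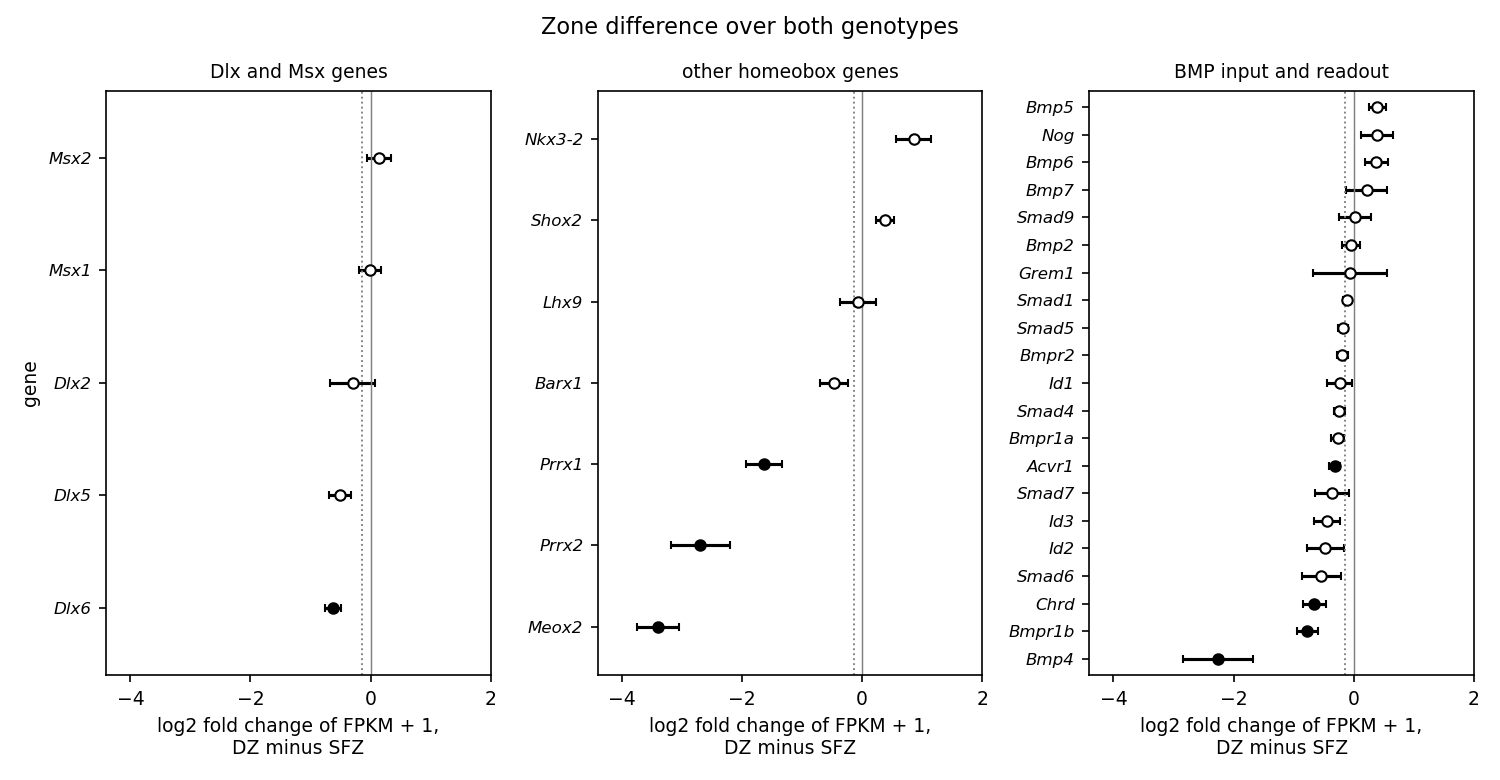
Log2 fold change of FPKM + 1 between DZ and SFZ cells over both genotypes (horizontal axis) for the Dlx and Msx genes, other homeobox genes and BMP genes that passed the filter (vertical axis). Bars are standard errors, filled points have an adjusted p under 0.05 on the deposited scale and the dotted line is the median of all genes tested, -0.14. On this scale Bmp4, Prrx1, Prrx2 and Meox2 lay farther from that line than Dlx6. The added 1 shrinks the difference of Dlx6 more, because its level was lower. The calls of Acvr1 and Chrd were lost on both other scalings.

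Downstream, 13 of 16 listed osteoblast and hypertrophic genes passed the filter over both genotypes, and 5 were called, beside 20.6% of all genes tested. Lower in DZ cells were 4 genes, namely the osteoblast regulator Runx2 (-0.44, adjusted p = 0.0147), the osteocalcin genes Bglap (-2.26, adjusted p = 0.00359) and Bglap2 (-2.20, adjusted p = 0.00157), and Col1a1 (-3.73, adjusted p = 0.0136), the collagen of bone and fibrous tissue. The parathyroid hormone receptor gene Pth1r was higher (1.10, adjusted p = 0.00221), and each of these 5 genes had its direction in 6 of 6 pairs of the same number. The list's median was -0.0032 against -0.14 over all genes tested. Runx2 was not called on the other scalings (adjusted p = 0.0606 and 0.0938), and the calls of Bglap, Bglap2, Col1a1 and Pth1r were kept on both. Bglap2 reached 31.98, 21.76 and 13.31 FPKM in R3-Cntl SFZ, 19.32, 7.16 and 13.88 FPKM in R3-cKO SFZ, 2.52, 4.68 and 5.59 FPKM in R3-Cntl DZ and 1.24, 1.49 and 2.79 FPKM in R3-cKO DZ libraries. All of its SFZ values exceeded all of its DZ values, as for Dlx6. Col10a1, the collagen of hypertrophic cartilage, ranged from 3.67 to 793 FPKM and was not called (2.24, adjusted p = 0.112). Between genotypes 0 of the 13 genes tested in each zone were called, with list medians of -0.71 in SFZ and -0.64 in DZ cells against -0.0075 and 0.047 over all genes tested.

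Markers of several cell types differed between zones together with Dlx6. The summed level of 7 tendon and fibroblast markers, led by Col3a1, was 576.58, 996.72 and 527.58 FPKM in SFZ cells of R3-Cntl mice and 550.73, 428.97 and 1194.55 FPKM under the R3-cKO label. In DZ cells the sums were 36.24, 117.00 and 289.93 FPKM without Cre and 62.32, 141.26 and 400.49 FPKM under the R3-cKO label. The zones did not overlap, and 6 of the 7 genes were called as lower in DZ cells, as were 4 of 7 superficial zone markers (3 with quantile normalization), whose sums ran from 211 to 583 FPKM in SFZ and from 36.7 to 149 FPKM in DZ libraries. All 11 chondrocyte markers, led by Col2a1, were called as higher in DZ cells (10 of 11 with quantile normalization), with sums of 15812, 5413 and 10045 FPKM in R3-Cntl SFZ, 13823, 8062 and 6385 FPKM in R3-cKO SFZ, 36982, 23498 and 31061 FPKM in R3-Cntl DZ and 24583, 16560 and 30700 FPKM in R3-cKO DZ libraries. The part of these lists in the zone difference of Dlx6 was not tested.

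Macrophage markers, led by Cd68 in SFZ cells, summed to 62.28, 55.58 and 4.32 FPKM in R3-Cntl SFZ and 62.44, 8.11 and 31.32 FPKM in R3-cKO SFZ libraries, and to 3.02 to 11.58 FPKM in DZ libraries. Of 9 tested, 5 were called as lower in DZ cells (2 with quantile normalization and 3 with size factors). Skeletal muscle markers summed to 126 FPKM in R3-Cntl SFZ library 2 and to 5.47 to 20.24 FPKM in the other libraries, with 0 of 3 called. Osteoclast markers, led by Ctsk, summed to 40.65 to 178.58 FPKM with 0 of 3 called, and adipocyte markers, led by Fabp4, to 3.62 to 47.41 FPKM with 0 of 1 called. Endothelial markers reached 5.77 FPKM and erythroid markers 0.17 FPKM, and no gene of either list passed the filter. Keratinocyte markers had 0 of 4 called between zones. Between genotypes limma called 0 genes of every marker list in both zones. The part of these markers in the values of the Dlx and Msx genes was not tested.

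**Figure D4:**
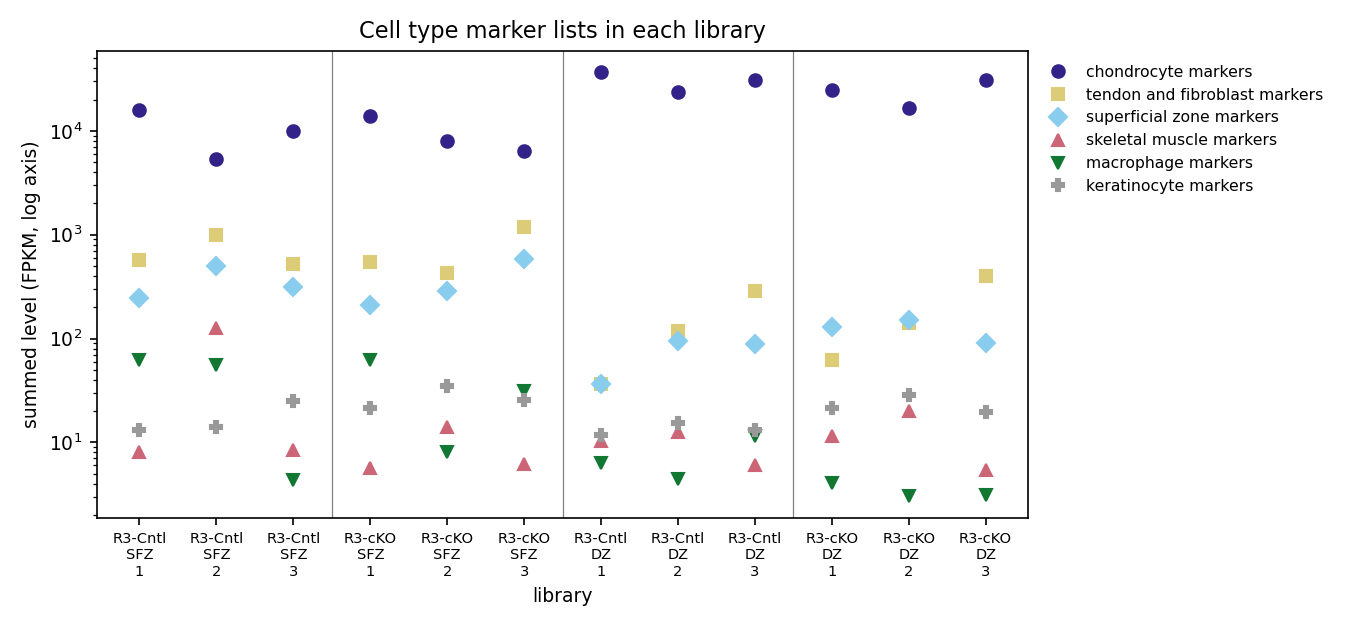
Summed level in FPKM (vertical log axis) of 6 lists of cell type markers in each of the 12 libraries (horizontal axis), 1 point per list and library. Chondrocyte markers were higher, and tendon and fibroblast markers lower, in each DZ library than in each SFZ library. Summed keratinocyte markers were higher in DZ libraries labelled R3-cKO than in R3-Cntl DZ libraries. That separation rested on Perp, and the summed rest of the keratinocyte list overlapped between genotypes.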

How the data were processed

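Chondrocyte RNA of 12 libraries was sequenced by the authors as paired-end reads and mapped to mm9 with Bowtie 0.12.2, per the labels. The authors deposited a linear value per gene and library, scaled between libraries by TMM per the file name. The unit of the deposited values is not written beside them and was inferred as FPKM from their sums (392241 to 429213 per library) and their dependence on transcript length. Read numbers could not be recovered from these values, since of 78 short genes 11 fell on whole multiples of a step within a tolerance of 0.15.

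From these values, log2(FPKM + 1) was fitted with limma 3.58.1 in R 4.3.3 with a mean-variance trend, keeping genes that reached 1 FPKM in 3 or more libraries of the fit. P-values were adjusted by Benjamini-Hochberg over all genes tested, and genes with an adjusted p under 0.05 were called. The fits were tested on simulated data, but no outcome of that test is given here. Genotypes were compared within each zone (6 libraries), zones within each genotype (6 libraries) and over both (12 libraries), and the difference of genotype effects over 12 libraries. The study describes SFZ and DZ cells of 3 individual littermate mice of each genotype, so the zones may share animals. Fits without blocks treated all libraries as independent. Single members were also compared by an exact two-sided permutation test, 3 libraries against 3, whose smallest p is 0.1.

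Named genes were the 6 members, Runx1, Runx2, Runx3, every gene of the lists (other Dlx and Msx genes, BMP input and readout, binding partners, osteoblast and hypertrophic genes, other homeobox genes, and markers of chondrocytes, superficial zone, keratinocytes, macrophages, osteoclasts, skeletal muscle, endothelium, erythroid cells, adipocytes, and tendon and fibroblasts) and the 3 genes most correlated with each member over 12 libraries. Members and lists were chosen with earlier results of these data known. Pairing by library number was checked by correlating each library's differences from its group mean.

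Alternatives were no filter, quantile normalization, size factors by the median of ratios, pseudocounts of 0.1 and 5, library numbers as blocks, leaving out each library in turn, all 12 libraries in a single model for the genotype comparisons, and geometric means for levels. Gene positions are GENCODE models of mm9, and promoters are RefSeq sequences of GRCm38.p6. The ChIP-seq and Runx2 data of the study were not analysed here.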

Additional observations from a re-analysis of the deposited data

How the results depend on the processing

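Of 420 values of single members under an alternative, 370 counted as the same, 48 changed sign and 2, both of Dlx5 between zones, passed the threshold. The values were log2 fold changes and, for each member and group, the level as a geometric mean. A fold change counted as the same if it kept its direction and side of the threshold. A level did so if the geometric mean was within the SD of the mean. Genotype counts and the count for the difference of genotype effects stayed at 0 throughout. The causes of the changes below were not tested.

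Called genes between zones in R3-Cntl cells were 0 with no filter, 88 with a pseudocount of 0.1, 29 with 5, 1 with quantile normalization, 17 with size factors, 831 with blocks and 0 to 505 leaving out 1 library. Under the R3-cKO label they were 7 with no filter, 1 with either pseudocount, 352 with blocks and 0 to 5 leaving out 1 library. Over both genotypes they were 3949 with blocks and 1245 to 2796 leaving out 1 library.

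Signs turned with quantile normalization for Dlx6 between genotypes in SFZ cells (0.021), Msx2 in DZ cells (-0.057) and Msx1 between zones in R3-Cntl cells (0.25) and over both genotypes (0.25). With size factors they turned for Msx2 in DZ cells (-0.025) and Msx1 between zones in R3-Cntl cells (0.041) and over both genotypes (0.0905). With a pseudocount of 5, Msx1 over both genotypes gave 4.1e-05.

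Leaving out 1 library, the genotype effect in SFZ cells ran from -0.33 to 0.66 for Dlx2, -0.14 to 0.16 for Dlx5, -0.22 to 0.083 for Dlx6, -0.069 to 0.23 for Msx1 and -0.18 to 0.17 for Msx2. In DZ cells it ran from -0.037 to 0.41 for Msx1 and -0.24 to 0.18 for Msx2. The difference of genotype effects ran from -0.11 to 0.34 for Msx1 and -0.26 to 0.19 for Msx2. The zone effect ran from -0.23 to 0.094 for Msx1 and -0.051 to 0.33 for Msx2 in R3-Cntl cells. Under the R3-cKO label it ran from -0.26 to 0.68 for Dlx2, -0.19 to 0.26 for Msx1 and -0.11 to 0.33 for Msx2, and over both genotypes from -0.13 to 0.088 for Msx1.

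Dlx2, Dlx3, Dlx6 and Msx2 lay near 1 FPKM, where the number of fragments behind a value was not recovered from the deposited table, and no counting interval is given. Dlx2 in DZ cells has no value without any single library labelled R3-cKO, since it then misses the filter. With 3 libraries a group, the exact test cannot go below 0.1. Library numbers are not stated to be mice, litters or preparations, although the study describes 3 individual mice of each genotype for both zones.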
